A study of Homo sapiens with 24 samples.

Results

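The RNA contacts of SNRNP200 in whole HEK293 cells exposed to 500 µM arsenic were described from the list of enriched windows that the authors deposited for this experiment. All windows of that list were taken, 117690 windows in 8202 genes, out of 329565 windows in the 6 lists of the series. A window is a stretch of a transcript, at most 100 bases long, in which immunoprecipitate (IP) reads exceeded those of the input. Every window had been called in 2 replicates, with q values under 0.2.

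The series mapped RNA contacts of SNRNP200, CAPRIN and G3BP1 in HEK293, which is a human line from embryonic kidney, by eCLIP, in which RNA crosslinked to a protein is pulled down and sequenced beside an input library of the same kind of lysate. The groups used here were whole cell SNRNP200 with 500 µM arsenic, IP and input, and whole cell SNRNP200 without treatment, IP and input, with 2 libraries in each group. All of them shared the cell line and the SNRNP200 label, and the labels do not give how long arsenic was applied. Nothing says whether the 2 replicates came from separate cultures, so their spread may be technical.

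SNRNP200, also called Brr2, is the RNA helicase of the U5 small nuclear ribonucleoprotein (snRNP). Inside the assembling spliceosome it unwinds the U4 snRNA from the U6 snRNA, which frees U6 to pair with U2 and with the 5′ splice site of the intron. It stays in the spliceosome through both steps of splicing, so its crosslinks can fall on snRNAs, on introns next to splice sites and on the flanking exons. Arsenic is a classical inducer of metallothioneins, heat shock chaperones, oxidative stress genes and the integrated stress response, whose new transcripts pass through splicing, apart from a few without introns.

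The windows shown here are those whose sequence could be read, to make visible what a splice site window holds. Feature types are the codes of the deposited list, read here as intron at a 5′ splice site (starting at the intron's first base), intron at a 3′ splice site (ending at its last base) and so on. In all, 944 of the 117690 windows lay inside the RefSeq start-site sequences of GRCh38.p14, which reach from 250 bases before to 50 after a gene's start, and their GC fraction was within 0.001 of the deposited one in all 944. Capitals mark the first 6 bases at a 5′ splice site and the last 2 bases at a 3′ splice site. DNAJB1 encodes a co-chaperone of HSP70, ATF3 a stress-induced transcription factor, and DDX5 an RNA helicase. They were chosen after their values were seen.
DNAJB1 (chr19:14518039-14518138, minus strand): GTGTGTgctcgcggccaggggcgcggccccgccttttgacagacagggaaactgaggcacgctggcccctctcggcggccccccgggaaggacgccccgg
ATF3 (chr1:212614918-212615017, plus strand): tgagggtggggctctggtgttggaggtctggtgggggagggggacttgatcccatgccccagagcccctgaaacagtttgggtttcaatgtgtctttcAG
DDX5 (chr17:64505976-64506075, minus strand): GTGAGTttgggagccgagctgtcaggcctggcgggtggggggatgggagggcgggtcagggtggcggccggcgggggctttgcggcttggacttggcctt

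The DNAJB1 window had 1130 IP and 26 input reads and a deposited log2 enrichment of 3.90 and 4.76 in the 2 replicates. The ATF3 window had 511 IP and 26 input reads, at 3.87 and 6.73. The DDX5 window had 1178 IP and 22 input reads, at 4.80 and 4.81. The 3 differ in how closely their replicates lie, from almost equal in DDX5 to a wide gap in ATF3. Of the 233 readable windows at a 5′ splice site, 230 began with GT, as nearly all human introns do, and the other 3 with GC. GTGAGT was their most frequent first 6 bases, in 47 of the 233, followed by GTAAGT in 19. At 3′ splice sites, 40 of 45 readable windows ended in AG. For reference, 51 of the 432 readable exon windows (11.8%) began with GT. Windows near gene starts are richer in GC than the list: the median GC fraction was 0.7 in the 233 windows and 0.45 in all 25112 at 5′ splice sites, so these sequences are not typical of the list.

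Some microRNA precursors coincided with an intron window. In a mirtron, a short intron that is itself a microRNA precursor, splicing in place of the enzyme Drosha makes the ends of the hairpin. The deposited list has a code for intron windows annotated at both splice sites, and 3 such windows had the same start and end as a RefSeq hairpin. Their hairpins are printed in RNA letters, with the first 6 and last 2 bases in capitals, to show that each begins with GU and ends with AG.
MIR877 in ABCF1 (chr6:30584332-30584417, plus strand): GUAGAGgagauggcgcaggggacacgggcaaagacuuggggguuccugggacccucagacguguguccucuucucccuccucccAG
MIR1229 in MGAT4B (chr5:179798278-179798346, minus strand): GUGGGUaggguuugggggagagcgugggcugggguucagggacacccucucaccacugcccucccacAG
MIR6891 in HLA-B (chr6:31355224-31355316, minus strand): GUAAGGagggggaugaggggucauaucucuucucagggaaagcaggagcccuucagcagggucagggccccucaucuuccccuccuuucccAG

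The MIR877 window had 74 IP reads and 1 input read, with a log2 enrichment of 4.08 and 5.81 in the replicates. The MIR1229 window had 24 IP reads and no input read, at 3.99 and 4.57, and the MIR6891 window 18 and none, at 3.81 and 3.99. Read numbers are low in all 3, and none has 10 input reads. Of the 1560 hairpins in the RefSeq table, 82 overlapped a listed window and 22 overlapped an intron window annotated at both splice sites. In all, 18 had the same ends as a listed window, but 14 of these windows are small RNA windows, which follow the annotation of the microRNA gene, and 1 is a 5′ splice site window. Of the 18 hairpins, 5 begin with GU and end with AG, the 3 printed ones and 2 of the 14. The median log2 enrichment was 4.32 in the windows annotated at both splice sites that overlap a hairpin and 4.19 in all windows of that code. These reads do not tell the hairpin from the intron that contains it.

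Introns made up 61118 windows (51.9%) and 44.3% of the IP reads, and exons of mRNAs 46.2% of the windows and 48.5% of the reads. Of the intron windows, 48205 (41.0% of the list) lay directly at a splice site. Introns at a 5′ splice site held 25112 windows, or 21.3% (95% exact interval 21.1 to 21.6), those at a 3′ splice site 19984, or 17.0% (16.8 to 17.2), and introns annotated at both splice sites 3109, or 2.64%. Of 15 readable windows annotated at both sites, 10 began with GT and ended with AG. Coding sequence was the largest single type with 41971 windows, or 35.7% (35.4 to 35.9). The intervals cover counting error only, and neighbouring windows are not independent. In windows with at least 20 IP and 10 input reads, 5′ splice sites held 7.32%, 3′ splice sites 7.01% and coding sequence 50.4%, and with 1 window per gene 3′ splice sites held 7.87%. Untranslated regions were rare, with 1.88% in 5′ UTRs and 1.48% in 3′ UTRs. Deep introns held 2.13%, and small RNAs only 85 windows (0.0722%), which nevertheless took 4.75% of the IP reads.

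**Figure D1:**
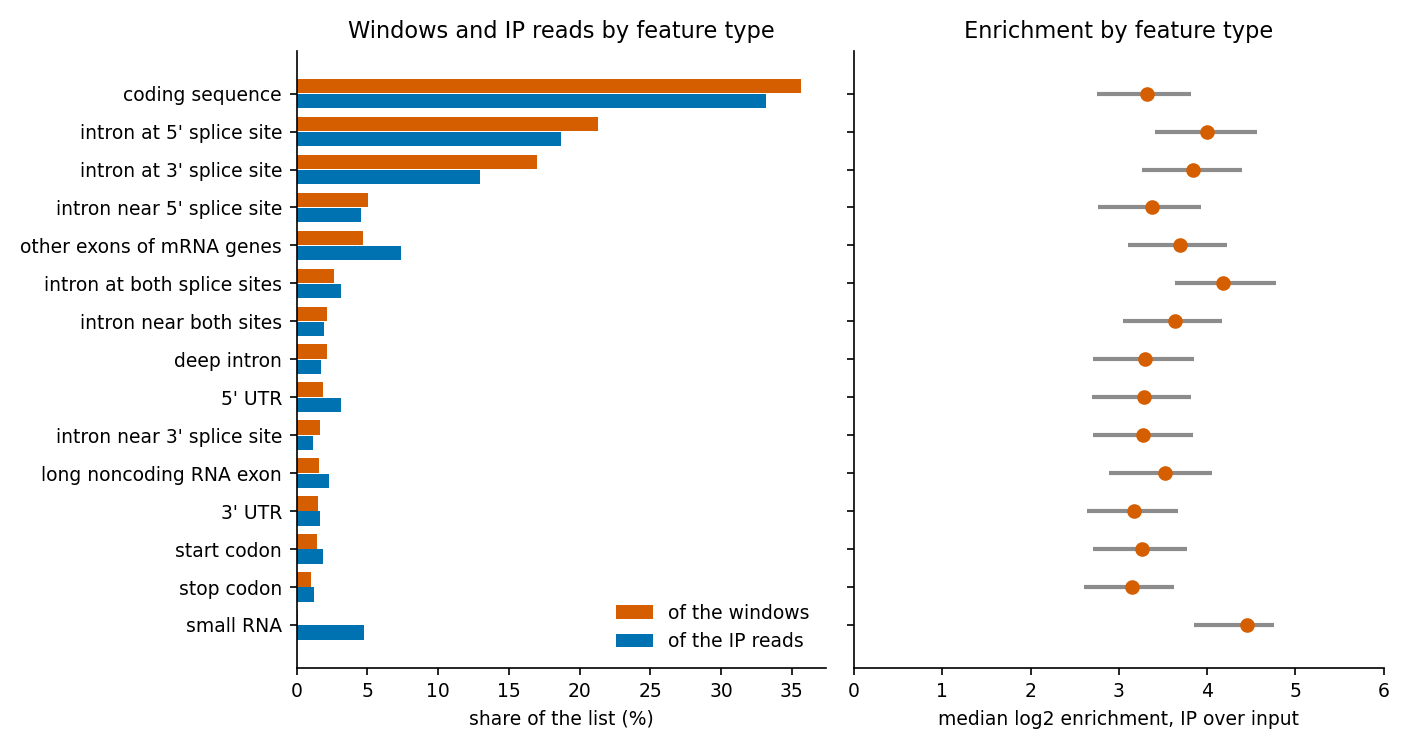
Left, the share in percent of the 117690 windows (orange) and of their IP reads (blue) by feature type in whole cells with arsenic. Right, the median of the deposited log2 enrichment per type (points), with grey lines from the median of the lower replicate to that of the higher one. Introns at both splice sites (4.19) and at 5′ splice sites (3.99) lie above coding sequence (3.32).

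Enrichment followed the same division. The median window had a log2 enrichment of 2.99 in its lower and 4.14 in its higher replicate, and a mean of 3.60. By the mean, introns at both splice sites had a median of 4.19, introns at 5′ splice sites 3.99 and at 3′ splice sites 3.84, against 3.32 in coding sequence and 3.30 in deep introns. Among the 1000 windows of highest enrichment, 62.7% were introns at a splice site and 13.5% coding, and among the highest 10000 the shares were 64.4% and 18.3%. Because the windows were kept for being enriched, these medians describe the list and carry no test. Input was sparse: the median window had 29 IP and 3 input reads, and 12234 windows (10.4%) had no input read. Zero input was more frequent at 5′ splice sites (18.3% of windows) than in coding sequence (4.38%), and the part of this in the difference of enrichment was not tested.

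Windows on an exon and on the adjoining intron were often listed together. A listed exon window touched 57.7% of the 5′ splice site windows from upstream (14489 of 25112), and 41.6% of the 3′ splice site windows were touched from downstream (8307 of 19984). Conversely, 18693 coding windows (44.5%) touched a listed splice site window, and 2148 (5.12%) did so at both ends. Windows that adjoined no other made up 39.7% of the list, and 34.1% stood in unbroken runs of 3 or more. The longest runs had 25 windows each, over 2138 bases in BRD2, a chromatin reader, and 1955 bases in MCM7, a subunit of the replicative helicase.

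Genes of very large proteins led the list by number of windows. A listed gene had a median of 8 windows, with quartiles of 3 and 19, and 1115 genes (13.6%) had a single window. At least 50 windows were found in 445 genes and at least 100 in 48, and the 100 genes with most windows held 9.73% of the list. UBR4, a giant ubiquitin ligase, came first with 286 windows, followed by the ubiquitin ligase HUWE1 with 277, the ribosome assembly ATPase MDN1 with 218 and PRKDC, the catalytic subunit of DNA-dependent protein kinase, with 206. MYCBP2 had 194, TPR of the nuclear pore basket 161, the DNA polymerase POLE 160, NBPF20 158, the chromatin remodeller CHD2 157 and CNOT1, the scaffold of the CCR4-NOT deadenylase, 155. Gene length was not accounted for in these counts. With q under 0.05 the list held 5403 genes with a median of 3 windows, and with at least 20 IP and 10 input reads 2589 genes with a median of 2.

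**Figure D2:**
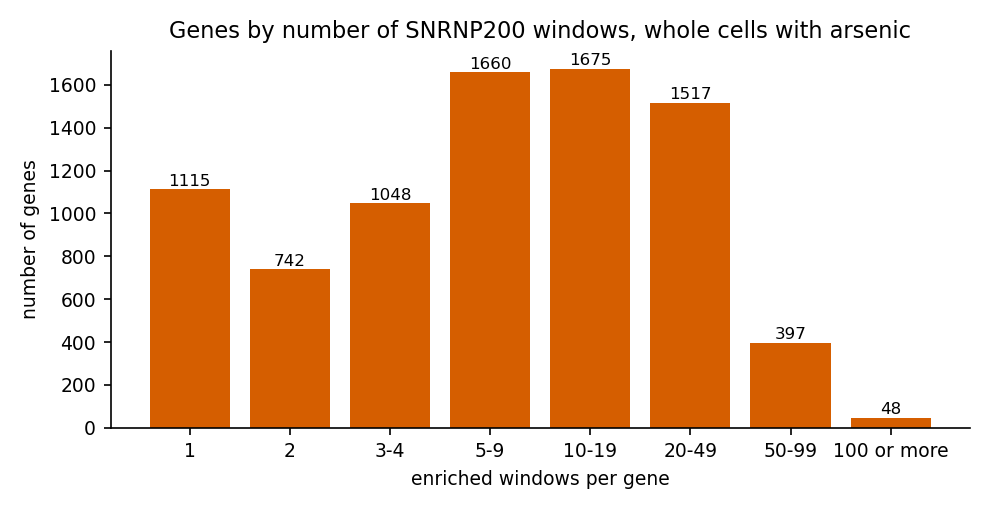
Number of genes (bars) by the number of enriched SNRNP200 windows per gene, in whole cells with arsenic. Genes with 10 to 19 windows form the highest bar with 1675, and 48 genes have 100 or more.

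Within these genes the windows divided between splice sites and coding exons. UBR4 had 170 of its 286 windows in introns at a splice site and 74 in coding sequence, with 81 at 5′ and 83 at 3′ splice sites. HUWE1 had 152 at splice sites and 79 coding, while MYCBP2 had 77 and 112. The strongest window of UBR4 was at a 3′ splice site, with 80 IP reads and 1 input read and a log2 enrichment of 5.77 and 6.20. That of POLE, also at a 3′ splice site, had 69 IP reads and none in the input, at 6.23 and 6.29. Among the genes with most windows NBPF20 stood apart, with 122 of 158 windows in deep introns. By annotated region, the most deep intron windows were 41 in NBPF20, 40 in NBPF19 and 39 in NBPF14. The NBPF family has near-identical copies, so the copy a read comes from is uncertain.

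Summed IP reads led to other genes. The RNU5E-1 gene of the U5 snRNA had 51912 IP and 12381 input reads, counted also under RP5-934G17.7, which has the same windows. WDR74 had 39833 IP reads over 23 windows, but 39025 of them lay in the window it shares with RNU2-2P. RNU2-1 followed with 32041 and the annotated U2 with 24426. Among protein-coding genes outside snRNA loci, EEF2, the elongation factor that moves the ribosome along, had 27750 IP reads over 73 windows, 56 of them intronic. HNRNPH1, a splicing regulator, had 26105 over 63 windows. Its strongest window, of the code for both splice sites, had 373 IP and 3 input reads, at 7.09 and 7.54. These are sums of raw reads, not levels per length.

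Genes were also ranked by their strongest window with at least 20 IP and 10 input reads. HSPA8, the constitutive HSP70 chaperone, came first with an exon window of 517 IP and 18 input reads, at 6.14 and 7.97. HNRNPA2B1, a splicing regulator, had 345 and 10 in an intron window at both splice sites, at 6.13 and 7.12. MT1X and MT2A, the metallothioneins, came next, then EIF5A, a translation factor, with 993 IP and 17 input reads at a 3′ splice site, at 5.98 and 6.77. SNHG1, a host gene of small nucleolar RNAs, had 986 and 27, at 5.27 and 7.28. DNMT1, SNRPB, HSP90AB1 and HNRNPAB completed the 10, with mean values between 6.20 and 6.25.

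The snRNAs were few in windows and heavy in reads. Spliceosomal snRNA genes numbered 51 with 67 windows, 263555 IP reads (4.73% of those in the list) and 54187 input reads (8.70%). Symbols of 42 of the 51 end in P, the ending of pseudogenes. Copies of an snRNA can be nearly identical, so which copy a read comes from, and therefore how many copies are bound, is uncertain. No sequence of an snRNA is printed because none was in the reference tables used here.

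U6, the RNA that SNRNP200 frees from U4, had the highest enrichment. Its 27 listed genes held 34 windows with a median of the mean log2 of 5.22, against 3.54 in 7 U5 windows, 3.28 in 19 U2 windows and 2.89 in 5 windows of the minor spliceosome. The strongest were RNU6-1266P with 236 IP reads and 1 input read, at 6.15 and 8.84, RNU6-1329P with 211 and 2, at 6.39 and 7.19, and RNU6-26P with 148 and 1, at 5.76 and 7.80. In 23 of the 34 windows the input had under 10 reads. RNU6-7 had the most reads, 19881 IP and 1114 input in its 5′ part, at 4.09 and 6.16, and 4394 IP and 83 input in its 3′ part, at 5.60 and 6.42. Only 8 of the 27 U6 genes had a window with at least 20 IP and 10 input reads.

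U5, the snRNA of the particle that SNRNP200 belongs to, had 101029 IP reads in 5 genes. Listed IP and input reads both concentrated in the 5′ part of the gene, meaning windows centred before its middle. The 5′ windows of 5 genes had 91049 IP and 23355 input reads. A 3′ window was listed in only 2 genes, with 9980 IP and 2511 input reads in all. RNU5E-1 had 43645 IP and 10139 input reads in its 5′ part, at 3.19 and 3.33, and 8267 and 2242 in its 3′ part, at 2.05 and 2.92. RNU5E-4P had 13387 and 1474 reads in the 5′ part, at 4.06 and 4.94, against 1713 and 269 in the 3′ part, at 3.24 and 4.89. The strongest window, in RNU5E-10P, had 270 IP and 5 input reads, at 6.12 and 6.38. RNU5E-6P had 8768 and 1642 reads and a mean of 3.54.

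U2, which pairs with the branch point of the intron and with U6, had 114152 IP reads in 14 genes. Its 5′ part, which holds the branch point pairing region, had 11 windows with 49971 IP and 8838 input reads. Its 3′ part had 6 windows with 730 IP and 157 input reads, so input reads were fewer there as well. Reads outside the listed windows are not counted. The main loci RNU2-2P and the gene named U2 could not be divided in this way. In 4 of the 5 U2 genes with windows in both parts the 5′ one was higher, by a median of 1.26 over the 5. RNU2-63P had the highest mean, with 26 IP reads and no input read, at 5.19 and 5.53, then RNU2-68P with 76 and 3, at 4.54 and 5.56, and RNU2-64P with 172 and 10, at 4.10 and 5.43. RNU2-1 had 32041 IP and 7230 input reads, at 2.04 and 3.96, so the loci with most reads were not those of highest enrichment. In U6 the 5′ part was higher in 2 of 6 such genes.

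Other snRNAs were sparse. U4 was represented by RNU4-78P alone, with 100 IP and 12 input reads, at 3.27 and 4.67, and U1, which recognises the 5′ splice site first, by RNVU1-34 alone, with 35 and 2, at 3.88 and 4.37. The minor spliceosome, which removes a rare class of introns, had RNU6ATAC with 4822 IP and 833 input reads, at 2.41 and 3.36. RNU4ATAC had 2949 and 529 in its 5′ part, at 2.71 and 3.67, and the copy RNU6ATAC2P had 215 and 20, at 2.63 and 4.60. U11 and U12 had no listed window. No window was listed in genes of 7SL, Y, vault, U7 or scaRNAs or of RNase P and MRP. A gene outside the list was not enriched reproducibly, which does not show that it was unbound.

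**Figure D3:**
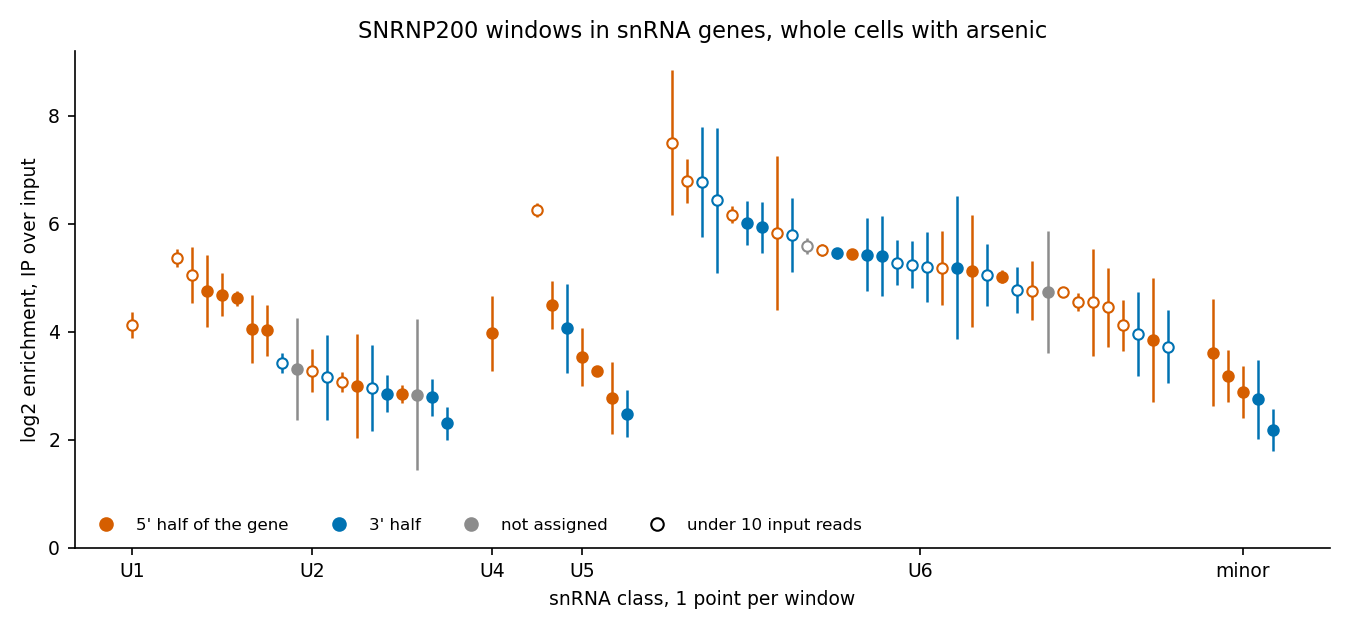
Deposited log2 enrichment of the 67 windows in spliceosomal snRNA genes, by class, in whole cells with arsenic. Points are means and lines join the 2 replicates, orange marks the 5′ part of the gene, blue the 3′ part, grey windows that were not assigned, and open points windows with under 10 input reads. U6 windows reach a mean of 7.50 and have a median of 5.22, with most points open.

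Stress genes had windows in introns as well as in exons. Over 5 lists of stress genes, 1521 windows were found, 862 of them (56.7%) in introns, against 51.9% in the list as a whole. By stress list the share ran from 50% in immediate early genes to 68% in metallothioneins. Outside the stress lists it was 56.4% in genes of U5 snRNP and U4/U6 proteins and 39.4% in those of SR proteins. The part of introns close to a splice site, without reaching it, held 16.6% of the 1521 windows and 8.85% of the whole list, while exons of mRNAs held 42.8% and 46.2%. For each stress list the number of windows was set beside that of whole cells without arsenic, where the list was longer, with 182066 windows in 9052 genes. Of the 9279 genes in either list, 12.1% had more windows with arsenic than without.

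Metallothioneins, small proteins that bind zinc, cadmium and arsenic, were listed only in the arsenic cells among the whole cell lists. MT1X had 16 windows with 3756 IP and 335 input reads, and MT2A 9 windows with 4446 and 268, while neither had a window without arsenic. The other 6 of the 8 members had none in either list. The first intron of MT1X was strongest at its 5′ splice site (chromosome 16, 56682569 to 56682668), with 431 IP and 13 input reads, at 5.51 and 7.47. In MT2A the strongest window was at the last 3′ splice site, with 1044 and 31 reads, at 5.40 and 7.48. Its windows at both 5′ splice sites lay close to that, with 493 and 19 reads at 5.20 and 7.58 and with 584 and 18 reads at 5.23 and 7.45. Exon windows of MT2A were lower, from 2.94 to 4.22 in the mean. Metallothionein genes resemble each other, so some of these reads may belong to relatives.

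Heat shock chaperones, which refold damaged proteins, had 544 windows in 20 of 26 listed genes. With arsenic, 12 of the 21 genes in either list had more windows (57.1%), 8 fewer and 1 the same number. HSPH1, the HSP110 chaperone, had 52 windows with arsenic and 16 without. HSP90AA1, the inducible HSP90, had 31 and 18, HSP90AB1, the constitutive HSP90, 48 and 43, and STIP1, which links HSP70 to HSP90, 53 and 50. HSPA8 had 30 and 31. DNAJB1, named after its values were seen, had 24 and 7. HSPA1A, the inducible HSP70, has no intron and is nearly identical to HSPA1B. It had a single coding window with 331 IP and 149 input reads, at 1.61 and 1.89, and HSPA1B had none, so reads of this pair are uncertain.

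Immediate early genes, transcription factors and phosphatases that are switched on within minutes, were listed in 8 of 27 cases. ATF3 had 44 windows with arsenic and 11 without, and DUSP1, a phosphatase that turns off stress kinases, 23 and 7. In all, 5 of the 9 genes in either list had more with arsenic. MYC had fewer, 2 with arsenic and 21 without, as had GADD45A with 5 and 11 and IER5 with 0 and 2, which were named after their values were seen. The strongest ATF3 window was at a 3′ splice site (chromosome 1, 212618027 to 212618126) with 258 IP and 6 input reads, at 5.37 and 6.35. In DUSP1 it was at a 5′ splice site (chromosome 5, 172769475 to 172769574) with 168 IP reads and 1 input read, at 6.86 and 7.18. The same window without arsenic had 32 IP and 3 input reads, at 3.32 and 4.22, but it was chosen as the strongest with arsenic. The shared DUSP1 window with most IP reads with arsenic, at a 3′ splice site, lay at 4.23 and 5.61 with arsenic. Without arsenic it lay at 4.13 and 5.71, a difference of 0.0013. KLF6 and GADD45B had 12 and 10 windows with arsenic, and 9 and 7 without.

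**Figure D4:**
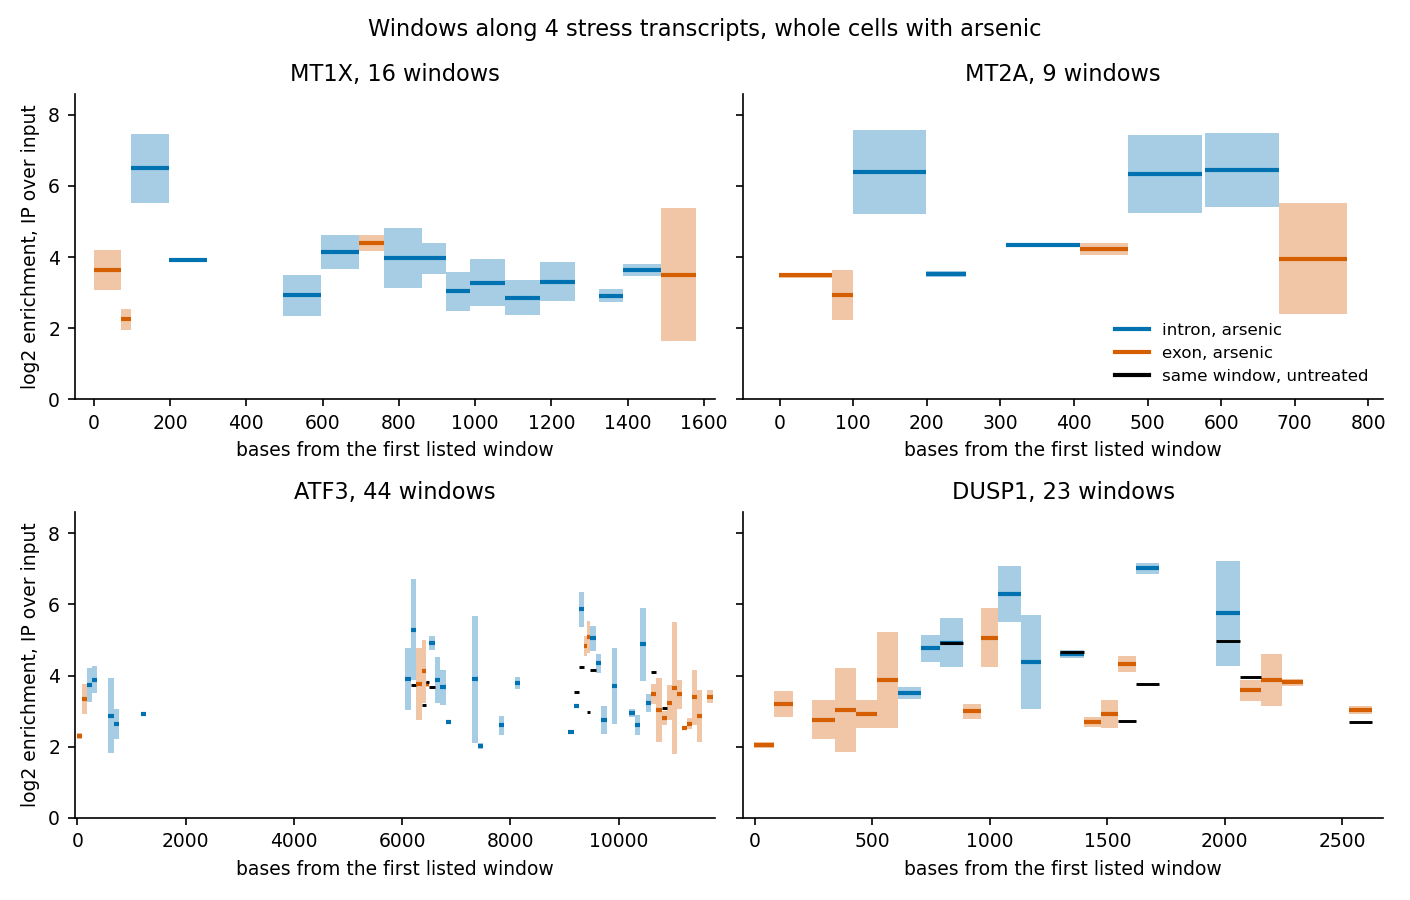
Enriched windows along MT1X, MT2A, ATF3 and DUSP1, 5′ to 3′, by distance in bases from the first listed window (x) and deposited log2 enrichment (y). Boxes span the 2 replicates with arsenic and coloured lines are their mean (blue in introns, orange in exons), and black lines are the mean of the same window without arsenic where it was listed. MT1X and MT2A have no black line. The DUSP1 window at 6.86 to 7.18, chosen as the strongest of the gene with arsenic, lies above its value without arsenic.

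The integrated stress response, driven by the transcription factor ATF4 once translation initiation is inhibited, had 19 of 20 genes listed. Of these 19, 10 had more windows with arsenic (52.6%, against 12.1% of all genes) and 7 fewer. The genes looked up include the kinases EIF2AK1, EIF2AK3 and EIF2AK4 and the factor XBP1, which were among those with fewer. SESN2, a sestrin, had 66 with arsenic and 50 without, and CHAC1, which degrades glutathione, 14 and 3. PHGDH, the first enzyme of serine synthesis, had 78 and 86, and SLC3A2, the heavy chain of amino acid transporters, 65 and 75. The CHAC1 window at a 5′ splice site had 363 IP and 5 input reads, with replicates far apart at 3.88 and 8.47. Oxidative stress genes under the factor NRF2 were listed in 20 of 24 cases, and 6 of the 20 had more windows with arsenic (30%). GCLM, the modifier subunit of the enzyme that starts glutathione synthesis, had 17 and 8. TXNRD1 and TXN of the thioredoxin system had 37 and 17 with arsenic, and 38 and 18 without. PGD had 31 and 29, TKT 38 and 72, and the exporter ABCC1 36 and 40.

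**Figure D5:**
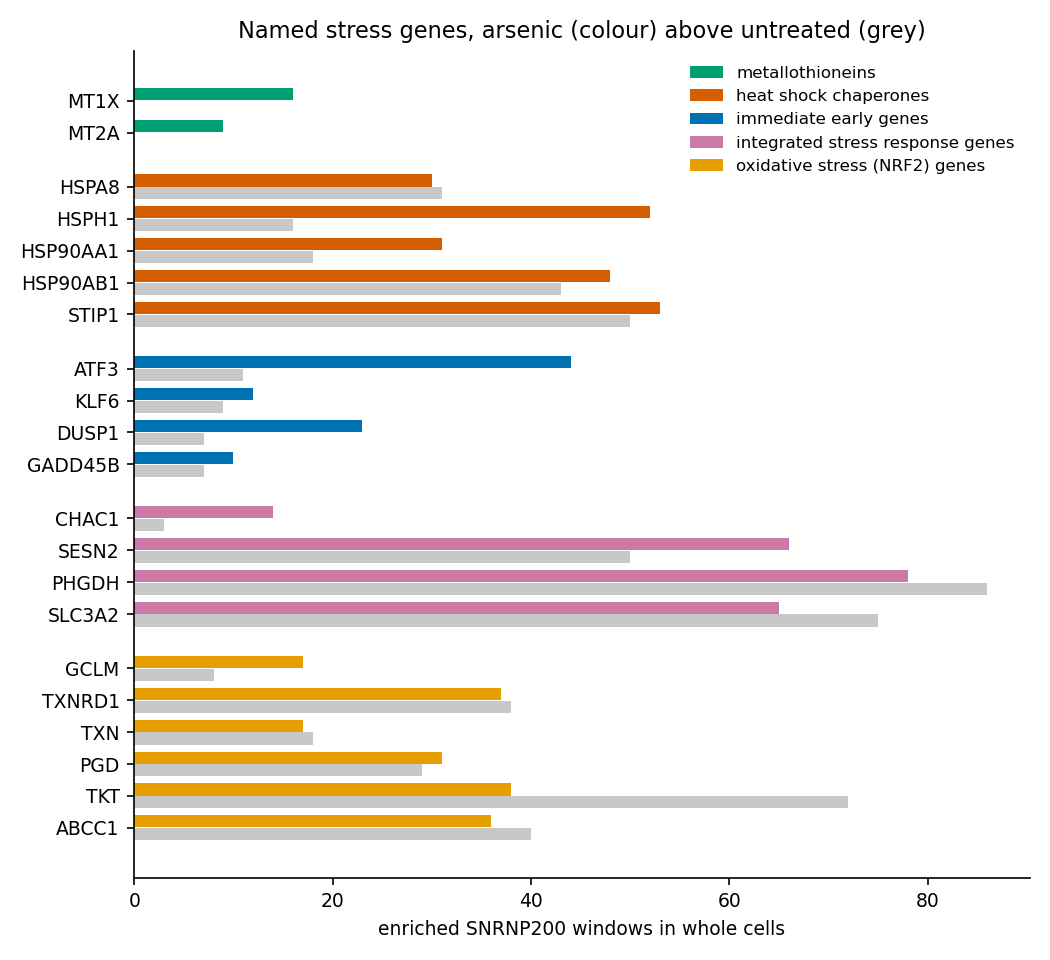
Number of enriched SNRNP200 windows (x) in the named genes of 5 stress lists, in whole cells with arsenic (coloured bar, above) and without treatment (grey bar, below). MT1X (16) and MT2A (9) have no grey bar, and HSPH1 (52 and 16) and ATF3 (44 and 11) have long coloured bars.

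Read numbers in windows of both lists were compared for IP and input side by side. Over the 91143 windows of both lists, 4840053 IP reads with arsenic stood against 5229686 without, a ratio of 0.925, and 539257 input reads against 623704, a ratio of 0.865. In the 369 shared windows of heat shock genes the ratio was 2.13 for IP and 2.05 for input. HSP90AA1 had 7970 IP and 576 input reads with arsenic and 1466 and 101 without, ratios of 5.44 and 5.70. DNAJB1 had 3009 and 215 with arsenic and 303 and 23 without, ratios of 9.93 and 9.35. ATF3 had ratios of 6.04 for IP and 4.64 for input, and DUSP1 5.96 and 5.38, with only 70 and 13 input reads behind the last. SESN2 had 3.14 for IP and 2.34 for input. In other genes the IP ratio was above 1 and the input ratio below 1. SLC7A11 had 1.75 for IP and 0.753 for input, TRIB3 1.87 and 0.75, ABCC1 1.17 and 0.784, and GCLC 1.06 and 0.40. All were named after their values were seen, and few input reads stood behind each input ratio. With arsenic and without, these were 73 and 97 in SLC7A11 and 3 and 4 in TRIB3. They were 29 and 37 in ABCC1 and 14 and 35 in GCLC.

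The IP ratio exceeded 0.925 in 17 of 19 heat shock genes and the input ratio exceeded 0.865 in 18 of them, where 46.3% and 41% of all 7531 genes with a shared window did. For integrated stress response genes the counts were 18 and 14 of 19, for NRF2 genes 11 and 11 of 18, and for immediate early genes 4 and 4 of 7. Reads were summed over the replicates by the authors, so these ratios have no replicate error and no test. The part of RNA abundance in the number of windows per gene was not tested. In these bulk libraries, more cells that express a gene and more of its RNA per cell cannot be told apart.

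Enrichment over input in the same window did not pass a test in any gene. The limma fit over 1 shared window per gene called 0 of 7406 (0%) at an adjusted p under 0.05, with 259 at an unadjusted p under 0.05. That window was the one with most IP reads with arsenic, a choice that can favour higher values with arsenic. The lowest limma adjusted p was 0.9957. Replicate ranges lay apart and higher with arsenic in 18.2% of the 7406 and apart and lower in 983 (13.3%), 4206 (56.8%) had the higher mean with arsenic, and the median difference over all of them was 0.16. With 2 samples against 2, and replicates that differed by a median of 0.86 on the log2 scale within a window, small differences were not detectable. Large ones did not pass either. SNU13 had a difference of 2.42 (SE 1.00) and RNU6-27P one of -2.04 (SE 0.85), each with a limma adjusted p of 0.996. Both were named after their values were seen.

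In the stress lists the median difference of log2 enrichment, arsenic minus untreated, was -0.10 over 19 heat shock genes, 0.21 over 18 NRF2 genes, 0.30 over 7 immediate early genes and 0.86 over 19 genes of the integrated stress response. For heat shock genes it was 0.10 as the mean over each gene's shared windows and 0.21 in windows with at least 20 IP and 10 input reads, and for the integrated stress response 0.39 as the mean of windows and 0.02 with q under 0.05. For immediate early genes it was 0.09 as the mean of windows and 0.0013 with q under 0.05, and for NRF2 genes 0.57 with q under 0.05 and 0.05 after the median difference of all genes was removed. For heat shock genes it was -0.26 after that removal and -0.03 with q under 0.05. Of the 19 genes of the integrated stress response, 14 were higher with arsenic (73.7%, against 56.8% of all genes). Replicate ranges lay apart and higher in 6 of the 19, SESN2 and SLC3A2 included, and in 18.2% of all genes. They lay apart and lower in 2 of the 19 and in 13.3% of all genes. In 2 lists outside the stress response, described below, 10 of 11 SR protein genes (90.9%) and 8 of 16 U5 snRNP and U4/U6 protein genes (50%) were higher. Differences of single genes, here and below, are given only for stress genes named by the naming rule whose replicate ranges lay apart. Those of GCLC, MYC and GADD45A, whose ranges also lay apart but which were named after their values were seen, are not given. Named genes with overlapping ranges, such as HSPH1, HSP90AB1, TXNRD1, ATF3 and CHAC1, are left out. The SESN2 window at its start codon had 867 IP and 45 input reads with arsenic, at 2.83 and 4.71, against 183 and 28 without, at 1.796 and 2.16, a difference of 1.79 (SE 0.92, limma adjusted p = 0.996). The SESN2 difference was 0.49 as the mean of its shared windows and -0.39 in the window chosen with q under 0.05. SLC3A2 in coding sequence had 1445 and 54 reads with arsenic, at 4.85 and 5.56, against 648 and 53 without, at 3.85 and 4.19, a difference of 1.18 (SE 0.86, limma adjusted p = 0.996) that was 0.48 as the mean of its windows.

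Among chaperones, HSP90AA1 had 1034 IP and 34 input reads at a 5′ splice site with arsenic, at 5.29 and 5.45, against 168 and 6 without, at 4.70 and 4.94. The difference was 0.55 (SE 0.85, limma adjusted p = 0.996), 0.24 as the mean of its windows and 0.36 in the window chosen with at least 20 IP and 10 input reads. HSPA8 lay at 4.02 and 4.23 with arsenic and at 4.30 in each replicate without, a difference of -0.17 that was -0.01 as the mean of its windows. STIP1 lay at 2.02 and 2.26 with arsenic and 2.95 and 4.47 without, a difference of -1.57 that was -0.40 as the mean of its windows and 0.24 in the window chosen with at least 20 IP and 10 input reads. PGD at its start codon lay at 3.74 and 3.75 with arsenic and 5.28 and 5.32 without, a difference of -1.56 that was -0.38 as the mean of its windows. PHGDH lay at 3.18 and 3.96 with arsenic and 4.13 and 5.14 without, a difference of -1.07 that was -0.09 with the same read limit and 0.18 as the mean of its windows. GADD45B lay at 6.27 and 6.33 with arsenic and 4.57 and 5.55 without, a difference of 1.24 that was 0.32 as the mean of its windows. None of these genes passed the limma test.

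The proteins that work with SNRNP200 were all in the list. The 16 genes of U5 snRNP and U4/U6 proteins had 598 windows with arsenic and 917 without, a ratio of 65.2% where the whole lists, with 117690 and 182066, had 64.6%. Of the 16, 1 had more windows with arsenic (6.25%, against 12.1% of all genes). SNRNP200 RNA itself had 68 windows with arsenic and 140 without, PRPF8, the scaffold at the spliceosome's centre, 138 and 187, EFTUD2, the U5 GTPase, 71 and 87, and PPIH 26 and 30. In the windows shared by both lists, the reads of the 16 genes with arsenic over those without had a ratio of 0.754 for IP and 0.777 for input, against 0.925 and 0.865 over all shared windows. The strongest PRPF8 window was at a 5′ splice site with 60 IP reads and none in the input, at 6.04 and 6.09, and that of EFTUD2 likewise, with 58 and none, at 6.33 in each replicate.

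SR proteins, which mark exons for splicing, were listed in 12 of 14 cases with 388 windows, of which 39.4% were intronic. SRSF11 had 53 windows, SRSF7 49, TRA2B 47 and SRSF5 38. Many SR protein genes hold poison exons, which lower their own expression when spliced in. TRA2B had its strongest window at a 3′ splice site with 105 IP and 3 input reads, at 5.30 and 7.29. Of 6 long noncoding RNAs looked up, 4 were listed, XIST with 26 windows, SNHG1 with 24, GAS5 with 13 and MALAT1 with 2. NEAT1 and KCNQ1OT1 had no window. GAS5, another snoRNA host, had 355 IP and 9 input reads in its strongest window, at 5.07 and 7.24.

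Several of the strongest windows were also in lists of other experiments. PRKCA had the highest enrichment of all, in a deep intron (chromosome 17, 66757027 to 66757126) with 659 IP reads and no input read, at 9.50 and 10.2. ETV5 followed with 778 and none, at 8.91 and 9.50, SPIN4 with 479 and none, at 8.85 and 9.55, and EVI5 with 553 and 1, at 8.20 and 9.37. Of the 20 highest windows, 9 were also in the CAPRIN list and 9 in the list of cytoplasmic SNRNP200 without arsenic, PRKCA, ETV5 and SPIN4 among them in each, and 14 (70%) in the list of whole cells without arsenic. Over all 117690 windows these shares were 2.19% and 0.348%. None of the 20 was in the G3BP1 list or that of cytoplasmic SNRNP200 with arsenic. Of the highest 1000 windows, 2.1% were in the CAPRIN list and 96% in that of whole cells without arsenic, against 77.4% of all windows. These windows and genes were chosen after their values were seen.

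Markers were read only as to whether they were listed. Of 10 genes used as markers of HEK293, 2 were listed, VIM with 19 windows and KRT18 with 4, and the strongest VIM window had 229 IP reads and 1 input read, at 5.10 and 7.80. Of 6 blood cell markers none was listed. Absence from a list of enriched windows does not measure expression, so the labelled cell line could not be checked further in this way.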

How the data were processed

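The eCLIP lists were used as deposited. Per the submitters' processing notes, fastp 0.11.5 and STAR 2.7.6 were used with genome build hg38, while no source used here names the window caller. The lists had no column names, so their values served to identify the columns. The deposited read counts are raw counts of IP and input per window, summed over replicates by the authors. Log2 values, also deposited, give the lowest, mean and highest replicate enrichment over input, and the deposited p-values and q-values their range. The deposited GC content is a fraction. Library totals are unknown, so depth per library is unknown. The zero of the log2 values varied with the deposited GC class: in windows with at least 10 input reads it stood for a median of 2.36 (arsenic) and 2.76 (untreated) input reads per IP read at GC above 0.29 and up to 0.323, and 0.581 and 0.546 above 0.58.

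Windows of several genes (2335) counted for each. Differences were tested with limma 3.58.1 under R 4.3.3 (two-sided moderated test, Benjamini-Hochberg, adjusted p under 0.05). Each gene was tested in its shared window with most IP reads in the arsenic list, on 2 replicate values per list. The window was thus chosen on 1 of the 2 groups compared. The procedure was tested on simulated data. Differences between lists include these baselines. The treatment field names arsenic for every sample, and the characteristics, which do not, set the groups. The protocol names the same antibody number for all 3 proteins. Named were the 10 genes with most windows, most IP reads and the strongest window with at least 20 IP and 10 input reads, the 3 strongest per snRNA class, and per gene list the 3 with most windows and the 3 with the strongest window (at least 20 IP reads). The members, lists and rules were chosen with earlier results of these data known. Sequences are from RefSeq (GRCh38.p14). Alternatives were stricter q or read limits, weighting, 1 window per gene, other variance models and centring.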

Additional observations from a re-analysis of the deposited data

How the results depend on the processing

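The share of windows at 5′ splice sites (21.3%) was 25.98% with q under 0.05, 7.32% with a limit of 20 IP and 10 input reads, 20.2% with 1 window per gene and 18.7% weighted by IP reads. In the same order, the share at 3′ splice sites (17.0%) was 19.3%, 7.01%, 7.87% and 12.95%, and that of coding sequence (35.7%) was 32.0%, 50.4%, 45.3% and 33.2%. The list held 5403 genes with q under 0.05 and 2589 with the read limit, in place of 8202. Introns at splice sites have few input reads, so the read limit removes more of them by construction. U6 genes numbered 25 with q under 0.05, 8 with the read limit and 12 without windows of several genes, in place of 27. Limma called 0 windows under each of the 5 alternatives, with 29 to 272 at an unadjusted p under 0.05. The difference in STIP1 was 0.24 with the read limit and also with q under 0.05, that in SESN2 -0.39 with q under 0.05, and that in PHGDH 0.18 as the mean of its windows, and the cause was not tested. The median of heat shock genes was 0.10 as the mean of windows and 0.21 with the read limit. Of the other 33 differences of single genes under an alternative, each kept its sign. In 8 of them only the variance model changed, which leaves the difference as it was. In another 8 the median difference of all genes, 0.16, was removed, which is smaller than each of them. The sign could not change in either case. No paired analysis was possible because the replicate values are deposited as lowest and highest without replicate numbers, and leaving out each replicate was not run for the same reason.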
